A study of Homo sapiens with 6 samples.

Results

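Histone lysine methylation is set by methyltransferases, here called writers, and taken off by demethylases, here called erasers. The genes described were chosen by symbol from the gene column of the table: all KDM, KMT2, KMT5 and SETD genes, the NSD, EHMT, SUV39H, EZH and SMYD families, and DOT1L, EED, SUZ12 and ASH1L. Of 15651 genes, 53 symbols matched, 2 hyphenated antisense symbols were dropped, and 51 genes remained, 34 writers and 17 erasers. All 51 passed the filter on low values, which 15246 genes passed (a normalised count of at least 4 in at least 3 libraries). The table uses older names for 3 of them: WHSC1 is NSD2, WHSC1L1 is NSD3 and SETD8 is KMT5A. SMYD1 and KDM4E were not listed. KMT5B and KMT5C appear only as SUV420H1 and SUV420H2, outside the rule.

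Messenger RNA was sequenced from MDA-MB-231 cells, a human triple-negative breast cancer line, to ask which transcripts change when the phosphodiesterase PDE7A is inhibited. There were 3 libraries from cells given the solvent DMSO and 3 from cells given BRL-50481, a selective PDE7 inhibitor, and the study describes the 3 of each group as biological replicates. The labels give 2 conditions for the inhibitor, 50 µM for 72 h in the protocol text and 5 µM for 48 h in the treatment field. The study's own figure legends for these expression data give 50 µM for 72 h. All libraries came from this 1 line grown in serum, so the spread is that between cultures of the line.

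As background, writers and erasers act at defined lysines, and each site has its own readers. Methylation of H3K4 marks promoters and enhancers, and methylation of H3K36 lies over transcribed gene bodies. Methylation of H3K27 by Polycomb repressive complex 2 (PRC2) marks silent developmental genes, and methylation of H3K9 marks heterochromatin. Most writers carry a SET domain and use S-adenosylmethionine as methyl donor. Erasers are of 2 kinds, the flavin-dependent KDM1 enzymes and the JmjC-domain enzymes, which use iron, oxygen and 2-oxoglutarate. In breast cancer cells EZH2, KDM1A and the KDM5 enzymes are well studied as drug targets.

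The libraries held 30750573 to 33446984 reads in listed genes. Of the DMSO libraries, replicate 1 stood apart from the others: its values rose with transcript length relative to DMSO replicates 2 and 3 (Spearman's rho 0.49 over 14737 genes, a description, since genes share their libraries). Results that touch long transcripts are therefore also given without it. The markers of the line VIM, CD44, EGFR and AXL were all present. Of the receptors that define a triple-negative tumour by their low level, ESR1 was not listed, PGR was under the filter, and ERBB2 had a mean of 1795 normalised counts over the 6 libraries and rose by 0.19 on the log2 scale (adjusted p = 0.0119). Of 4 epithelial markers CDH1 and KRT8 rose and EPCAM and KRT18 fell, with the largest change in CDH1 (1.39, from 38.2 ± 9.1 to 99.8 ± 6.1 normalised counts, SD, n = 3, adjusted p = 4.28e-05 by limma). The leukocyte genes PTPRC and CD3E were not listed. The 3 listed genes of the other cell types, CD68, PECAM1 and COL1A1, summed to 4077 to 4484 normalised counts in DMSO and 5685 to 5998 with BRL-50481, and the 4 line markers, all called higher, to 140670.0 to 143835 and 189929 to 192402. Any part of these shifts in the results below was not tested.

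Changes in the enzymes were common but modest. With BRL-50481, 19 of the 51 genes were higher, 16 were lower and 16 did not pass the test. Over all genes tested 58.7% were called, 28.9% higher and 29.8% lower, so calls in either direction were frequent throughout the table. The log2 fold changes of the enzymes ran from -0.54 (SETD3) to 0.80 (KDM8), with a median of 0.09 beside 0.01 over all genes. None of the 51 was called with a change of more than 1 on the log2 scale, whereas 8.04% of all genes were. The enzymes were also more abundant, with a median of 2005 normalised counts beside 725 over all genes. The part of this level in the counts of calls and large changes was not tested. In 37 of the 51 the 3 values of each group did not overlap, as in 64.2% of all genes. By family, all 3 NSD and all 3 KDM5 genes were higher and both KDM1 genes lower, 2 of 4 KDM4 genes were higher, and 3 of 4 SMYD genes were lower. The pairs SETD1A and SETD1B and KDM6A and KDM6B were each called in opposite directions. Families and classes were not tested against each other.

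**Figure D1:**
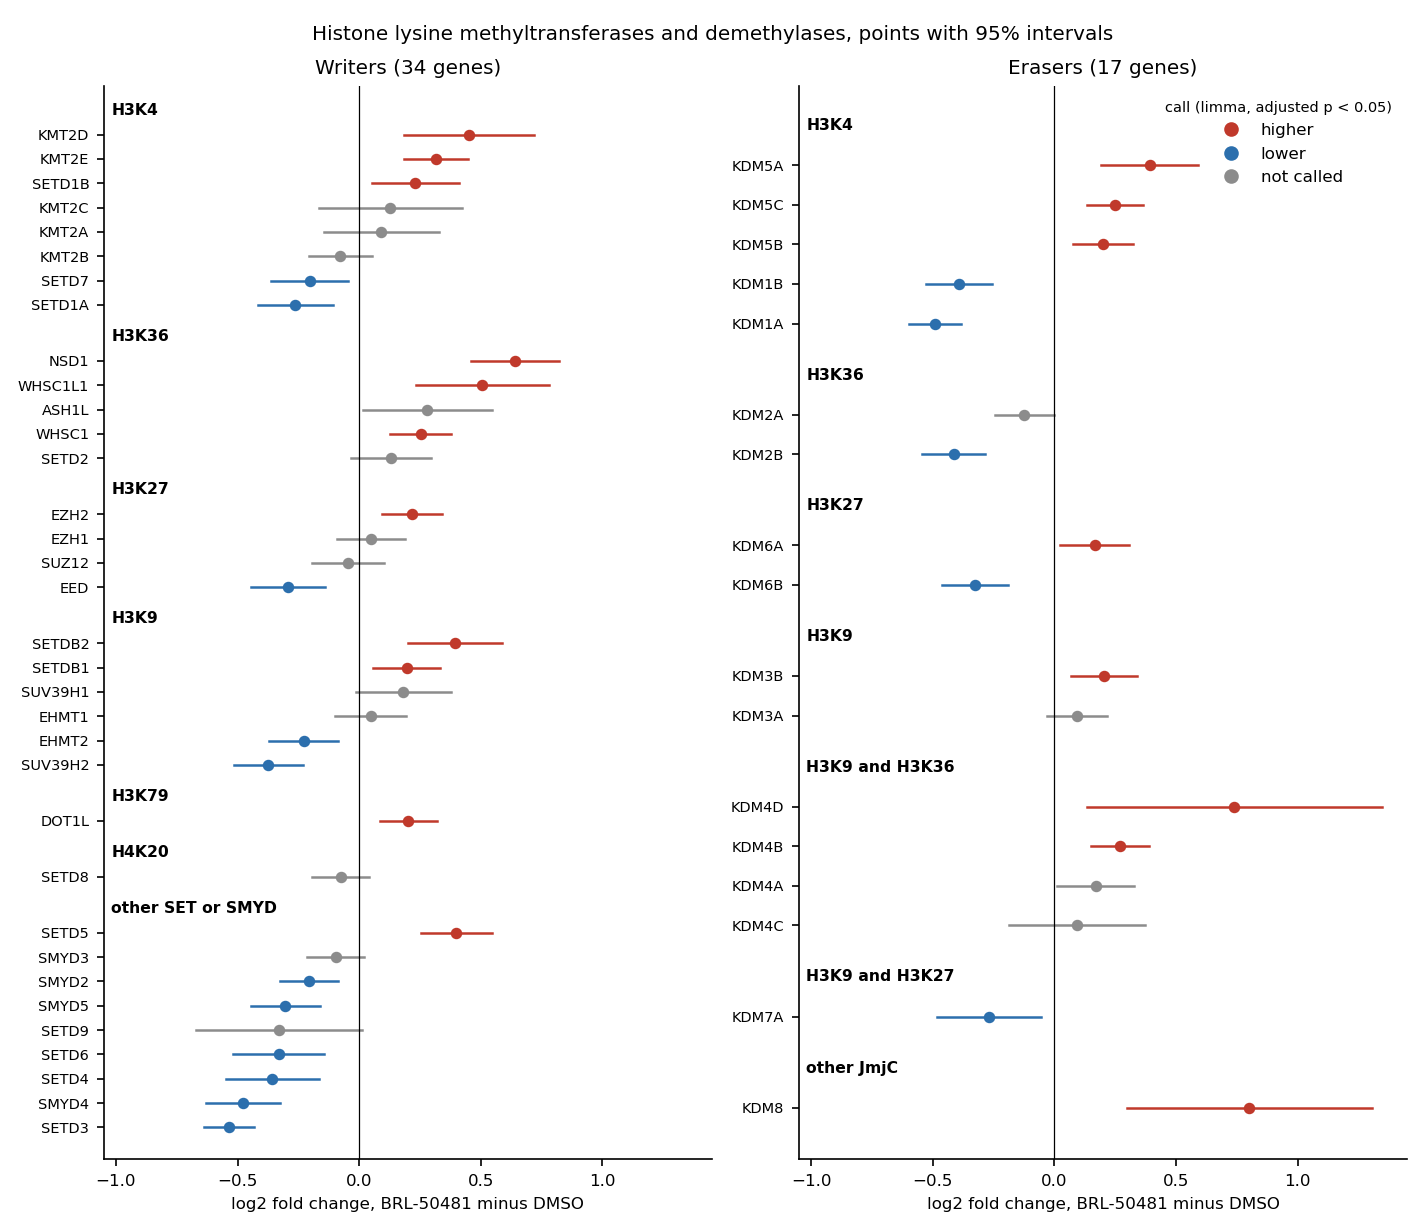
Log2 fold change of BRL-50481 against DMSO (x axis) for the 34 writers on the left and the 17 erasers on the right, grouped by the site they act on. Points are estimates and lines 95% intervals from limma on 3 libraries a group, with red for called higher, blue for called lower and grey for not called. The NSD genes and the KDM5 genes lie to the right of 0, and KDM1A, KDM1B and most of the other SET and SMYD genes to the left.

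The promoters of the enzymes were searched because PDE7A breaks down cyclic AMP, whose signal reaches genes through the cyclic AMP response element. Of the 51 genes, 48 had an entry in the RefSeq promoter table (GRCh38.p14), and the 250 bases before the start were searched on both strands. The full element TGACGTCA was found in 1 of the 48, SUV39H2, and in 1.77% of 27305 promoters. The CCAAT box bound by NF-Y was found in 17 of 48 (35.4%) and in 9021 of all 27305 promoters. It was in 8 of 16 promoters of genes called higher, 5 of 16 called lower and 4 of 16 not called. At least 3 copies were present in 4 of 48 (EZH2, KDM4A, KDM4B and SETD5) and in 3.09% of all promoters. The motifs TTTCGCGC and TTTGGCGC, read by E2F factors, were in none of the 48 and in 0.469% and 0.553% of all. Of the cell cycle element (CHR) sequences, TTTGAA was in 2 of 48 (SUZ12 and WHSC1) and in 13.6% of all, and TTCGAA was in none and in 1.2% of all. The median GC content of the promoters was 65.4% for genes called higher, 66.2% for genes called lower and 68.6% for genes not called. Over all promoters it was 58.0%, and its part in these motif shares was not tested. A match is a description of the letters and does not show binding.

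The sequences that follow are the promoter with the cyclic AMP element and the 3 promoters of higher genes with the most CCAAT boxes, 5′ to 3′ on the strand of the gene, with the motif in capitals (ATTGG is CCAAT on the other strand). Bases that lie inside the GENCODE gene were left off, which removes 46 bases for SUV39H2, and for EZH2 30 bases with the last of its 4 copies. SUV39H2 lies at chr10:14878616-14878819 (plus strand), EZH2 at chr7:148884322-148884541 (minus strand), KDM4B at chr19:4968863-4969112 (plus strand) and SETD5 at chr3:9397365-9397614 (plus strand).
SUV39H2: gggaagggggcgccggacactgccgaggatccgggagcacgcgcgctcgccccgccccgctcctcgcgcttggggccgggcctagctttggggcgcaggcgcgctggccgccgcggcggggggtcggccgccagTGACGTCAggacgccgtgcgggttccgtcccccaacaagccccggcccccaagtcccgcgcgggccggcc
EZH2: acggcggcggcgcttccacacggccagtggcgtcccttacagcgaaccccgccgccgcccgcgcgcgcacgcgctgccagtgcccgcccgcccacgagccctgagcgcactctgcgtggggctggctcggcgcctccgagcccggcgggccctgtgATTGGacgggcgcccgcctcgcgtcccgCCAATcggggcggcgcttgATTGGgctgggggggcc
KDM4B: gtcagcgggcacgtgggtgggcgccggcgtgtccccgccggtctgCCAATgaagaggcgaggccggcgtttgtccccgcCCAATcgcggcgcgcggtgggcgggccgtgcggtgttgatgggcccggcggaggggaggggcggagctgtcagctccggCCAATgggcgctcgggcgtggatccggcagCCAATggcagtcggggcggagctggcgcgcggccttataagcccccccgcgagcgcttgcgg
SETD5: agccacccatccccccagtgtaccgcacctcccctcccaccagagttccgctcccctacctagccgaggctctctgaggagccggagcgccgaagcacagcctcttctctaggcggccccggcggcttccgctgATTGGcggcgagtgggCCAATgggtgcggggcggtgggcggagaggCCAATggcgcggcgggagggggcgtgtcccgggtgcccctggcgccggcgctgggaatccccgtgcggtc
SUV39H2 fell with BRL-50481, and EZH2, KDM4B and SETD5 rose, as given at each gene.

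Of the 5 H3K36 writers, the 3 NSD genes rose, and SETD2 and ASH1L did not pass the test. NSD1, an H3K36 dimethyltransferase on chromosome 5 (hg38, 177131830 to 177300213, plus strand), had 2268, 1710.3 and 1838 normalised counts in DMSO replicates 1 to 3 and 3002, 2980.5 and 3028 with BRL-50481. The lowest treated library lay well above the highest DMSO library. The log2 fold change was 0.64 ± 0.08 (SE, n = 3 a group), with an adjusted p of 2.41e-05. This was the largest rise among the writers in this test. Without DMSO replicate 1 the change was 0.76, and it was 0.45 after values were corrected for transcript length and GC content.

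WHSC1L1, another H3K36 dimethyltransferase, gave 2236, 1371 and 1589 in DMSO and 2384, 2388 and 2455 with BRL-50481. DMSO replicate 1 was near the treated values, and the groups still did not overlap. The change was 0.51 ± 0.13 (adjusted p = 0.00387), and 0.71 without DMSO replicate 1. WHSC1, by far the most abundant of the family, gave 10354, 8810.3 and 9258 in DMSO and 10978, 11505 and 11290.2 with BRL-50481, a change of 0.25 ± 0.06 (adjusted p = 0.0021). Per kilobase of transcript, NSD1 made up 9.48% ± 0.39 (SD, n = 3) of the family in DMSO and 11.9% ± 0.25 with BRL-50481, so the family's transcripts shifted from WHSC1 (80.3% to 76.6%) toward NSD1.

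SETD2, the enzyme of H3K36 trimethylation that travels with RNA polymerase II, changed by 0.13 ± 0.08 (adjusted p = 0.159). ASH1L, also an H3K36 methyltransferase, changed by 0.28 ± 0.12 (adjusted p = 0.0636). Both had their highest DMSO value in replicate 1 (3528 against 2732 and 3087 for SETD2, and 3239 against 2038 and 2274 for ASH1L). Without that library they were called higher, with changes of 0.22 and 0.48. Of the 2 KDM2 genes, which act on H3K36, 1 passed the test: KDM2B, a CpG-binding enzyme that recruits Polycomb complex 1, fell by 0.41 ± 0.06 on the log2 scale (adjusted p = 6.3e-05), from 1352, 1254 and 1324 to 978, 983 and 988. Its relative KDM2A, the more abundant per kilobase (794 against 246 normalised counts per kilobase in DMSO), changed by -0.12 ± 0.06 (adjusted p = 0.0776).

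The H3K4 erasers split by enzyme type. Both flavin-dependent enzymes fell, and all 3 JmjC enzymes rose. KDM1A (LSD1), which works in the CoREST complex, had 5739, 5751 and 6025 normalised counts in DMSO and 4033, 4078 and 4356 with BRL-50481. Every treated library was below every DMSO library by more than the spread within either group. It fell by 0.49 ± 0.05 on the log2 scale (adjusted p = 2.72e-06).

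KDM1B (LSD2), its relative, gave 2436, 2104 and 2290.1 in DMSO and 1788, 1666 and 1744 with BRL-50481, and fell by 0.39 ± 0.06 (adjusted p = 0.000148). Of the JmjC enzymes, KDM5A had 1883, 1421 and 1437 in DMSO and 2140.3, 1986 and 2043 with BRL-50481, a change of 0.39 ± 0.09 (adjusted p = 0.0025). Without DMSO replicate 1 the change of KDM5A was 0.52. KDM5C had 4940.2, 4574 and 4502 in DMSO and 5428, 5804 and 5417 with BRL-50481, a change of 0.25 ± 0.05 (adjusted p = 0.00128). In both, the treated libraries lay above all DMSO libraries, with DMSO replicate 1 the nearest.

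KDM5B changed by 0.20 ± 0.06 (adjusted p = 0.00839), and by 0.05 after values were corrected for transcript length and GC content, where it was no longer called. Summed per kilobase, KDM1A and KDM1B made up 60.5%, 62.6% and 63.9% of the H3K4 erasers in the DMSO libraries and 50.1%, 49.0% and 51.4% in the treated ones. The flavin-dependent share thus fell in every treated library below the lowest DMSO library. The KDM1 and KDM5 genes were chosen for this detail after their values were seen, as were the other genes given by library outside the rule for named genes.

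**Figure D2:**
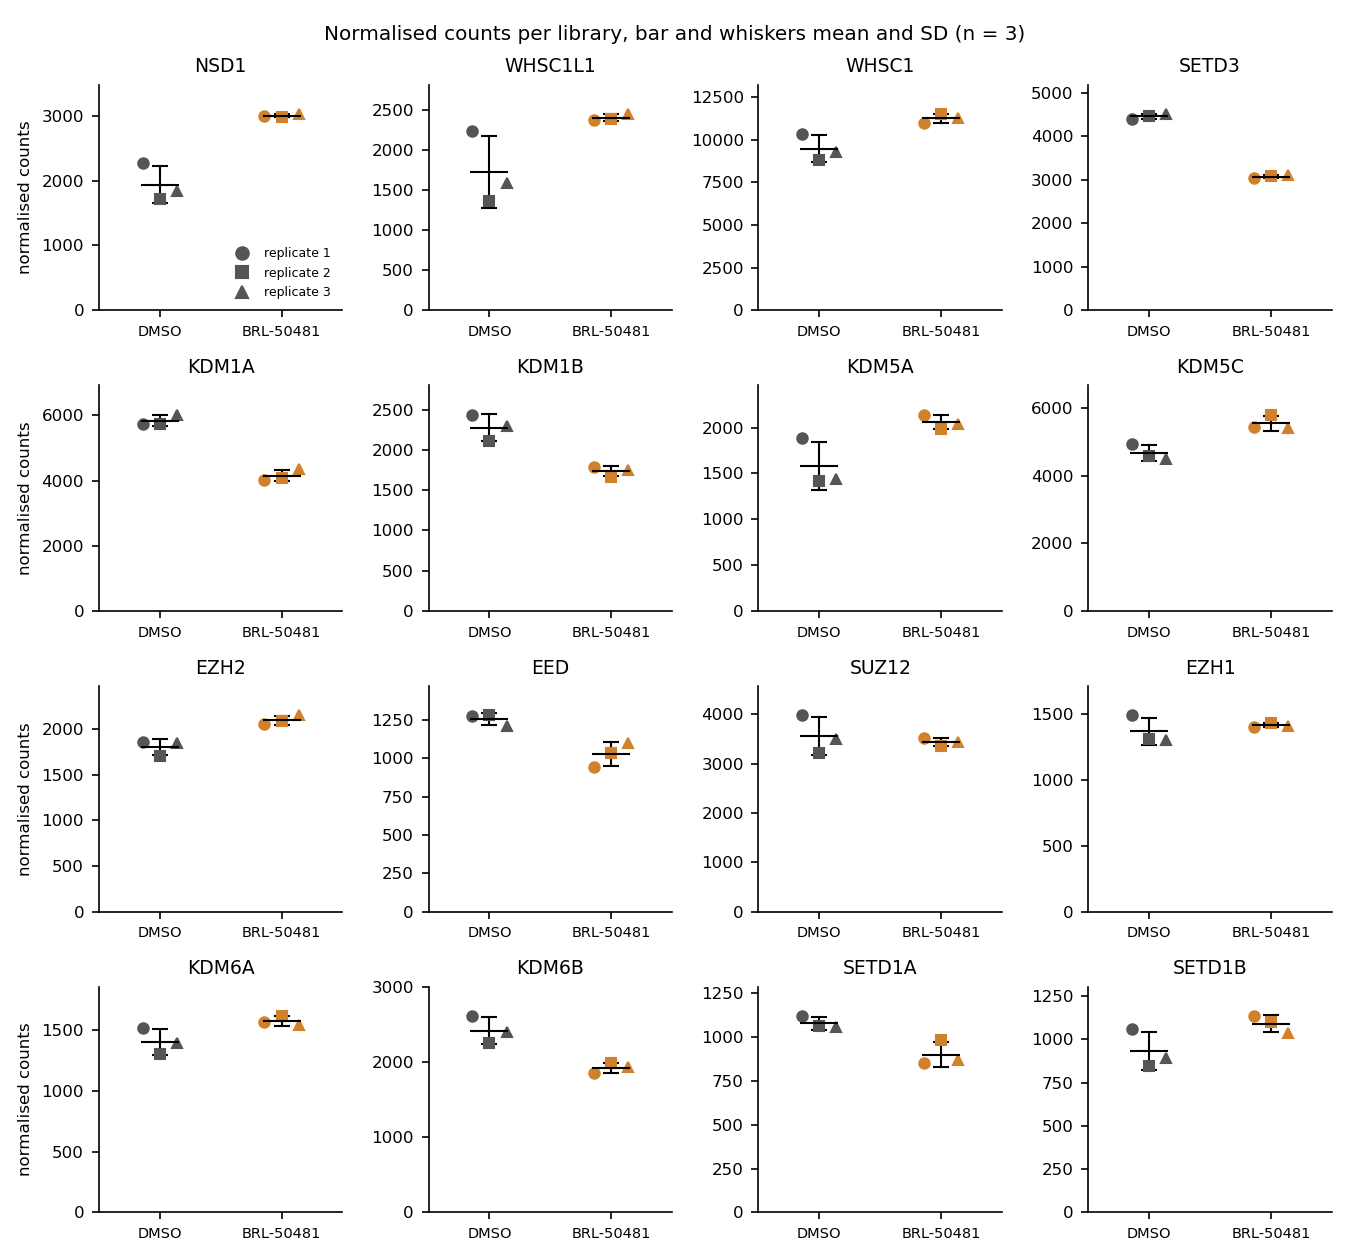
Normalised counts (y axis, from 0) of 16 writers and erasers in each library, with grey for DMSO and orange for BRL-50481. Circles, squares and triangles are replicates 1, 2 and 3, and the bar and whiskers are the mean and SD of 3 libraries. NSD1, SETD3, KDM1A and KDM1B show clear gaps between the groups, SUZ12 and EZH1 overlap, and DMSO replicate 1 is the highest DMSO library for WHSC1L1 and KDM5A.

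The H3K4 writers did not move as a group. Of 8, SETD1B, KMT2D and KMT2E rose, SETD1A and SETD7 fell, and KMT2A, KMT2B and KMT2C did not pass the test. SETD1A and SETD1B, the enzymes that place trimethylation in the COMPASS complexes, went in opposite directions. SETD1A gave 1120.2, 1062 and 1056 in DMSO and 851, 982 and 871 with BRL-50481, and fell by 0.26 ± 0.07 (adjusted p = 0.00636). SETD1B gave 1059, 849 and 895 in DMSO and 1135, 1103 and 1038 with BRL-50481, so that DMSO replicate 1 lay within the treated range. Its change was 0.23 ± 0.08 (adjusted p = 0.0282), and it kept its call only without DMSO replicate 1 or treated replicate 3, in 2 of the 6 fits that omit a library, with changes of 0.16 to 0.32 over the 6.

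KMT2D, an enhancer monomethyltransferase, changed by 0.45 ± 0.12 (adjusted p = 0.00668), with 3708 in DMSO replicate 1 against 2324 and 2593 in the other DMSO libraries and 3771 to 4001 with BRL-50481. The call was lost with DESeq2 and with limma without its variance trend, and the change was 0.22, still called, after the correction for length and GC content. Without DMSO replicate 1 the change of KMT2D was 0.65. KMT2C, its relative, parts of which are duplicated elsewhere in the genome, changed by 0.13 ± 0.14 (adjusted p = 0.436). KMT2A (MLL1) changed by 0.09 ± 0.11 (adjusted p = 0.492) and had 10280.3 in DMSO replicate 1 against 6795 and 7484. Without DMSO replicate 1, KMT2A and KMT2C were called higher (0.27 and 0.35), and after the correction for length and GC content KMT2A was called lower (-0.16) and KMT2C was at -0.13. No direction can be given for these 2 genes.

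KMT2B changed by -0.08 ± 0.06 (adjusted p = 0.284). KMT2E, a divergent member of the family with no known methyltransferase activity on H3K4, rose by 0.31 ± 0.06 (adjusted p = 0.000588) and was called in every setting. SETD7, which monomethylates H3K4 and several other proteins, fell by 0.20 ± 0.07 (adjusted p = 0.0288). Without any 1 of the 3 treated libraries SETD7 was no longer called, with changes of -0.28 to -0.11 over the 6 fits, the smallest without DMSO replicate 1.

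At H3K27 the PRC2 subunits did not move together. EZH2, the catalytic subunit (chromosome 7, 148807257 to 148884321, minus strand), had 1852, 1702 and 1848 in DMSO and 2052, 2081 and 2146 with BRL-50481. All treated values were higher than all DMSO values, and the change was 0.22 ± 0.06 (adjusted p = 0.00501). EED, the subunit that binds trimethylated H3K27, had 1277, 1279 and 1212 in DMSO and 942, 1037 and 1102 with BRL-50481. It fell by 0.29 ± 0.07 (adjusted p = 0.00276), with no overlap between groups.

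SUZ12, the subunit that holds the core together and has a partial copy nearby, gave 3974, 3217 and 3499.5 in DMSO and 3517, 3360.2 and 3443 with BRL-50481, a difference of -0.05 ± 0.07 (adjusted p = 0.589, 95% interval -0.19 to 0.10). EZH1, the alternative catalytic subunit, gave 1487, 1311 and 1304 in DMSO and 1398, 1430.3 and 1408 with BRL-50481, a difference of 0.05 ± 0.06 (adjusted p = 0.537, 95% interval -0.09 to 0.19). The groups overlapped for both. EZH2 made up 69.7% ± 1.4 of EZH1 and EZH2 per kilobase in DMSO and 72.1% ± 0.49 with BRL-50481 (SD, n = 3).

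The 2 main H3K27 erasers parted. KDM6B (JMJD3), the inducible one, had 2613, 2255 and 2399 in DMSO and 1855, 1989 and 1939 with BRL-50481, and fell by 0.33 ± 0.06 (adjusted p = 0.000586). KDM6A (UTX), its X-linked relative, had 1517, 1303 and 1389 in DMSO and 1567, 1613 and 1536 with BRL-50481, a change of 0.17 ± 0.07 (adjusted p = 0.0428). The KDM6A values of DMSO replicate 1 and of treated replicate 3 were close, and the call held in 1 of the 6 fits without 1 library, the one without DMSO replicate 1. KDM6B made up 60.9%, 61.1% and 61.0% of the pair per kilobase in DMSO and 51.7%, 52.8% and 53.3% with BRL-50481. KDM7A, which acts on H3K9 and H3K27, fell by 0.27 ± 0.10 (adjusted p = 0.0332), and the call was lost without any 1 of the treated libraries (changes down to -0.38 and up to -0.13 over the 6 fits, the smallest without DMSO replicate 1).

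**Figure D3:**
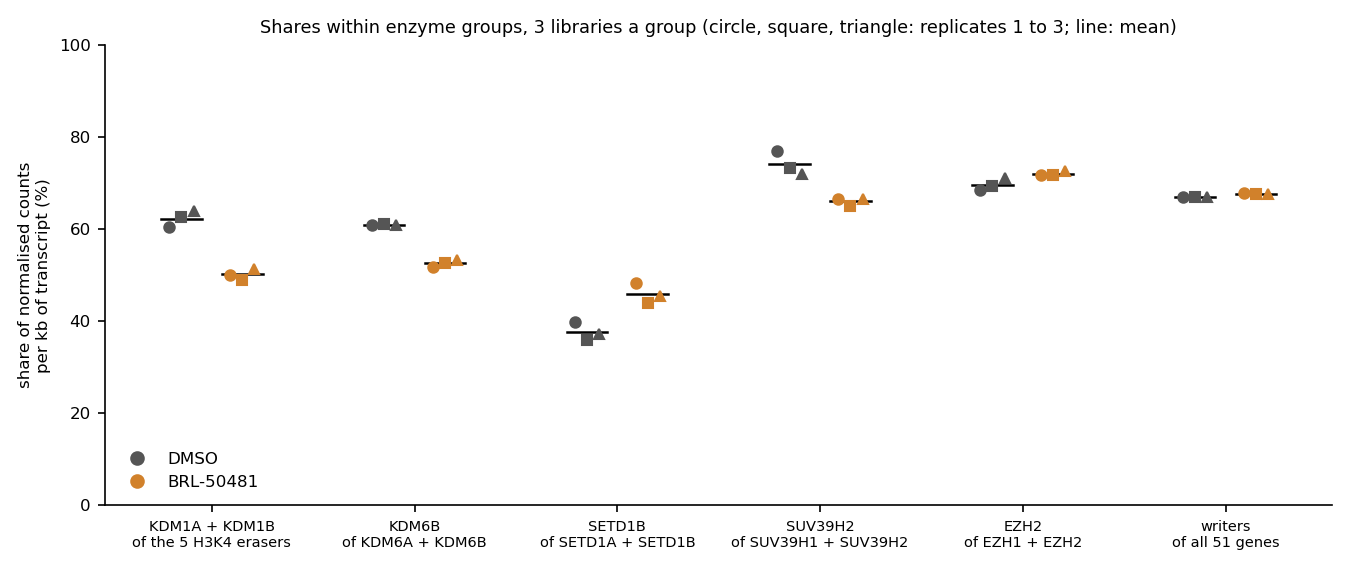
Share of normalised counts per kilobase of transcript (y axis, %, from 0 to 100) taken by the named genes within their group, for each DMSO library in grey and each BRL-50481 library in orange, with the mean as a line. The KDM1 share of the H3K4 erasers and the KDM6B share of its pair are lower in all treated libraries, the SETD1B share is higher, and the share of all writers differs by under 1 percentage point between the means (67.0% and 67.7%).

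The H3K9 writers were also split. SUV39H2, which places trimethylation in heterochromatin and is the gene with the cyclic AMP element shown above, had 1250.2, 1175 and 1148 in DMSO and 970.5, 883 and 903 with BRL-50481, and fell by 0.37 ± 0.07 (adjusted p = 0.000314). SUV39H1, its relative, was at 0.18 ± 0.09 (adjusted p = 0.104). EHMT2 (G9a), which places mono- and dimethylation, fell by 0.23 ± 0.07 (adjusted p = 0.00926), while its partner EHMT1 (GLP) was at 0.05 ± 0.07 (adjusted p = 0.568).

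SETDB1, a writer of trimethylation that works with TRIM28, rose by 0.19 ± 0.06 (adjusted p = 0.0181), and kept its call in 3 of the 6 fits without 1 library (0.16 to 0.24), losing it without DMSO replicate 2, DMSO replicate 3 or treated replicate 3. SETDB2, its less abundant relative, rose by 0.39 ± 0.09 (adjusted p = 0.00212). Of the JmjC enzymes that act on H3K9, KDM3B rose by 0.20 ± 0.06 (adjusted p = 0.013) and KDM4B, which also acts on H3K36, by 0.27 ± 0.05 (adjusted p = 0.000891). KDM4B had 1709, 1823 and 1756 in DMSO and 2063, 2169 and 2142 with BRL-50481, a clear gap. KDM3B was no longer called without DMSO replicate 3 or without treated replicate 3 (0.17 to 0.28 over the 6 fits).

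KDM3A (0.09 ± 0.06, adjusted p = 0.172), KDM4A (0.17 ± 0.07, adjusted p = 0.0604) and KDM4C (0.09 ± 0.13, adjusted p = 0.564) did not pass the test. The 2 largest rises of the erasers were in the least abundant genes. KDM4D had 27.8, 15.7 and 28.6 in DMSO and 36.2, 34.2 and 49.4 with BRL-50481, a change of 0.74 ± 0.28 (adjusted p = 0.0364). KDM8, a JmjC protein whose role as a histone demethylase is disputed, had 36.7, 29.4 and 28.6 in DMSO and 41.3, 68.5 and 60.1 with BRL-50481, a change of 0.80 ± 0.23 (adjusted p = 0.00968). At this depth these changes rest on few reads: KDM4D kept its call only without DMSO replicate 1 or 3, in 2 of the 6 fits (0.47 to 0.89 over the 6), and KDM8 in 5, losing it without treated replicate 2 (0.65).

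DOT1L, the H3K79 writer, whose catalytic domain is not a SET domain, had 2274, 2362 and 2384 in DMSO and 2573, 2689 and 2812 with BRL-50481, a rise of 0.20 ± 0.05 (adjusted p = 0.00609). DMSO replicate 1 was its lowest library, unlike in the long KMT2 genes. SETD8, the H4K20 monomethyltransferase, was at -0.08 ± 0.05 (adjusted p = 0.243). The H4K20 enzymes that continue its work, KMT5B and KMT5C, lie outside the rule and were at 0.19 ± 0.06 (adjusted p = 0.0101, SUV420H1) and 0.13 ± 0.13 (adjusted p = 0.376, SUV420H2).

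The SET and SMYD genes with no settled histone site were mostly lower: of 9, 6 fell, SETD5 rose, and SETD9 and SMYD3 did not pass the test. Over all genes tested 29.8% were lower, and the count of 6 was not tested against that share. SETD3, which methylates a histidine of actin (chromosome 14, 99397748 to 99480889, minus strand), had 4400.5, 4459 and 4517 in DMSO and 3034, 3078 and 3115 with BRL-50481. It fell by 0.54 ± 0.05 (adjusted p = 7.11e-07), and the spread within either group was small beside the gap. SMYD4 fell from 1002, 963 and 933 to 709.7, 726 and 647, a change of -0.48 ± 0.07 (adjusted p = 7.28e-05).

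SETD4 (-0.36 ± 0.09), SETD6 (-0.33 ± 0.09), SMYD5 (-0.30 ± 0.07) and SMYD2 (-0.21 ± 0.05) fell as well, with adjusted p of 0.00356, 0.00521, 0.00148 and 0.00587. SETD6 is a methyltransferase of the NF-κB subunit RELA. SMYD2 methylates H3K36 and p53, but was kept in this group and not counted among the H3K36 writers. SETD9 was at -0.33 ± 0.16 (adjusted p = 0.09) and SMYD3 at -0.10 ± 0.05 (adjusted p = 0.145). SETD5 went against the others, from 6216, 5057 and 5245 to 7287, 7315 and 7090.3, a rise of 0.40 ± 0.07 (adjusted p = 0.00021). SETD5 is also the longest of the 9, with a transcript of 6931 bases beside a median of 2856, and SETD6, which fell, has 6256. After the correction for length and GC content SETD5 was at 0.28 and still called. A part of length in its rise was not tested.

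Writers and erasers both held genes called in either direction. Of the 34 writers 11 were higher, 11 lower and 12 not called (median log2 fold change 0.05), and of the 17 erasers 8 were higher, 5 lower and 4 not called (median 0.17). In percent, 32.4% of the writers were higher and 32.4% lower, and 47.1% and 29.4% of the erasers. Over all genes tested the shares were 28.9% and 29.8%, so those of the writers were near the table's own. The 8 higher erasers include KDM4D and KDM8, which rest on few reads. After the correction for length and GC content 6 erasers were higher and 6 lower (median 0.048). Of the writers 12 were then higher and 13 lower (median -0.050). Without DMSO replicate 1 the counts were 10 and 5 for erasers and 15 and 13 for writers. A smaller set kept the genes with a settled histone activity of their own. It left out KMT2E and KDM8 (called higher), EED (called lower), SUZ12 and the 9 SET and SMYD genes with no settled histone site. In it, 22 writers had 9 higher and 4 lower (40.9% and 18.2%, median 0.16). Of its 16 erasers 7 were higher and 5 lower (43.8% and 31.2%, median 0.13). The shares of these 22 writers lay farther from the table's own than those of the 34, a difference that was not tested. Per kilobase, writers made up 67.0%, 67.0% and 67.0% of the 51 genes in the DMSO libraries and 68.0%, 67.6% and 67.6% in the treated ones. Every treated library lay above every DMSO library. The share includes KDM1A, the eraser with the highest level, which fell from 1892 to 1347 normalised counts per kilobase. The share without KDM1A was not computed, so no shift toward writers in general can be read from it.

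Whether related enzymes changed by different amounts was tested on the log2 ratio of 20 pairs of paralogues, by a two-sided exact permutation test over libraries. In 10 pairs the ratios of the groups did not overlap, which gives an exact p = 0.1, the smallest this design allows, and 0.2 after adjustment over the pairs, so no pair could pass. The largest shifts were SUV39H1 over SUV39H2 (by 0.55 ± 0.12, SE), KDM6A over KDM6B (0.49 ± 0.03), SETD1A over SETD1B (-0.49 ± 0.10), NSD1 over WHSC1 (0.39 ± 0.06) and KMT2C over KMT2D (-0.32 ± 0.03). The ratio of KDM6A to KDM6B had the tightest DMSO values, with an SD of 0.0034 on the log2 scale. KDM1A over KDM1B (-0.10 ± 0.08, exact p = 0.3) and KDM5B over KDM5C (-0.05 ± 0.04, exact p = 0.4) overlapped between groups.

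These genes have long transcripts, with a median of 5604 bases beside 3170 over all genes, and length moved with several results. DMSO replicate 1 was the highest DMSO library for 36 of the 51 genes and for all 7 with a transcript of at least 10000 bases (KMT2D, KMT2C, KMT2A, NSD1, ASH1L, WHSC1L1 and KDM5A). In those 7 it exceeded the mean of the other DMSO libraries by a median of 0.59 on the log2 scale (0.36 to 0.68), against 0.09 in the 44 shorter genes. Their median log2 fold change was 0.39, 0.52 without DMSO replicate 1, and 0.21 after the correction for length and GC content, beside 0.00093 in the shorter genes with all libraries. Longer transcripts had the higher fold changes among the 51 genes (Spearman's rho 0.42) and, less so, over the whole table (rho 0.17), values given with no test.

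Without DMSO replicate 1, 25 of the 51 were higher and 18 lower, and 8 genes gained a call: KDM3A, KDM4A, SETD2, ASH1L, KMT2A and KMT2C higher, and SETD9 and SMYD3 lower. Over all genes, 64.3% were then called, 32.0% higher and 32.4% lower. After the correction, 18 were higher and 19 lower, beside 64.6% of all genes called, 31.3% higher and 33.4% lower. KDM6A and KDM5B lost their calls, KDM2A, SUZ12 and KMT2A were called lower, and SUV39H1 was called higher. The correction lowered the rise of NSD1 from 0.64 to 0.45, of WHSC1L1 from 0.51 to 0.32 and of KDM5A from 0.39 to 0.21. It also lowered the rise of WHSC1 from 0.25 to 0.15, of KMT2E from 0.31 to 0.17 and of KDM3B from 0.20 to 0.091. KDM7A went from -0.27 to -0.44 and SETD7 from -0.20 to -0.34. All of these genes were still called. The rise of NSD1, WHSC1L1, WHSC1 and KDM5A and the fall of KDM1A, KDM1B, SETD3, KDM6B, EED and SUV39H2 passed the test in both. The part of length in the smaller changes was not tested further. Reads of ASH1L, EED, EHMT1, KDM4A, KDM4C, KMT2A, KMT2D, KMT2E, SETD6 and WHSC1 may include those of annotated genes that overlap them on the same strand.

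**Figure D4:**
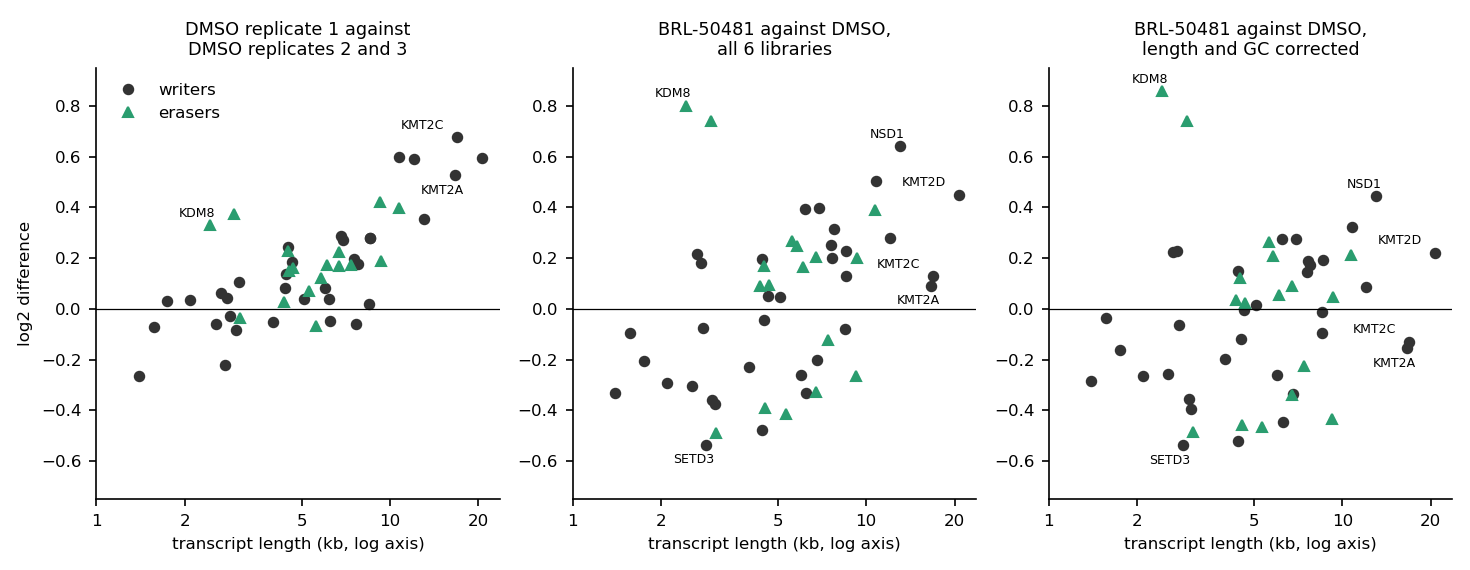
Log2 differences (y axis) of the 51 genes against transcript length (x axis, kb, log scale), with circles for writers and triangles for erasers. On the left DMSO replicate 1 against the mean of DMSO replicates 2 and 3, in the middle BRL-50481 against DMSO, and on the right the same after correction for length and GC content. The 7 genes of at least 10000 bases lie 0.36 to 0.68 above 0 on the left, and KMT2A and KMT2C move from above to below 0 between the middle and the right.

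In level per kilobase, KDM1A led the 51 genes in DMSO (1892 ± 52 normalised counts per kilobase, SD, n = 3), followed by SETD3 (1561 ± 20), SMYD2 (1300 ± 42) and WHSC1 (1253 ± 105), the last 2 within their spread of each other. With BRL-50481 the order changed: WHSC1 (1489 ± 35) was the highest, then KDM1A (1347 ± 57), SMYD2 (1127 ± 39) and, next to each other within their spread, SETD3 (1077 ± 14) and SMYD3 (1075 ± 5.8). KDM8 (13.0 ± 1.8 in DMSO) and KDM4D (8.14 ± 2.5) were the lowest in both groups.

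The genes that work with these enzymes were followed in lists fixed for the purpose. Of 12 COMPASS partners, the shared core of the complexes and their accessory subunits, 3 rose and 5 fell (median -0.10). The core subunits WDR5 (from 3324 ± 105 to 2389 ± 33 normalised counts, SD, n = 3, -0.48 on the log2 scale, adjusted p = 3.84e-06) and DPY30 (1511 ± 103 to 1046 ± 21, -0.53, adjusted p = 1.49e-05) fell most. The core subunit ASH2L rose by 0.38 (adjusted p = 0.000266), while RBBP5 fell by 0.35 (adjusted p = 0.000757), so of these 4 core subunits 3 fell and 1 rose. Partner genes named here beyond the 2 with the largest called changes of each list were chosen after their values were seen.

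Of 9 PRC2 partners 3 rose and 4 fell. PHF19, a Polycomb-like subunit that brings PRC2 to chromatin, rose from 1656 ± 55 to 3063 ± 112, by 0.89 on the log2 scale (adjusted p = 3.83e-08), more than any PRC2 core gene. C17orf96 (EPOP) fell from 697 ± 42 to 475 ± 30 (-0.55, adjusted p = 6.34e-05), and RBBP4, a histone chaperone of the core, fell by 0.49 on the log2 scale (adjusted p = 2.58e-06). RBBP7, in the same list and more abundant (mean of 6748 normalised counts against 2923 for RBBP4), was at -0.03 (adjusted p = 0.575).

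Of 9 partners of KDM1A in CoREST and related complexes, 2 rose and 4 fell. RCOR2 fell from 134 ± 1.0 to 48.8 ± 13 (-1.46, adjusted p = 1.61e-05), and the deacetylase HDAC1 from 5254 ± 121 to 3970.2 ± 81 (-0.40, adjusted p = 8.59e-06), in the same direction as KDM1A. The 2 that rose, against KDM1A, were HMG20B (0.29, adjusted p = 0.00223) and PHF21A (0.22, adjusted p = 0.00794). The main scaffold RCOR1 was at -0.10 (adjusted p = 0.224).

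Of 10 partners of H3K9 methylation 3 rose and 4 fell. The heterochromatin protein gene CBX1 fell from 6359 ± 252 to 4518 ± 155 (-0.49, adjusted p = 2.72e-06), and FAM208A (TASOR), of the HUSH complex that works with SETDB1, rose from 2163 ± 297 to 3559 ± 70 (0.73, adjusted p = 4.51e-06). Of 8 JmjC relatives outside the rule 1 rose and 4 fell: JMJD6, a lysyl hydroxylase, fell from 2940.3 ± 126 to 1178 ± 51 (-1.32, adjusted p = 3.18e-09), and JMJD1C rose by 0.46 (adjusted p = 0.000807).

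Of 7 genes in the list for the supply of methyl donor and 2-oxoglutarate 2 rose and 2 fell. IDH2, which makes 2-oxoglutarate in mitochondria, rose from 448 ± 34 to 729 ± 44 (0.70, adjusted p = 9.85e-06). MAT2A, the S-adenosylmethionine synthetase, fell by 0.20 (adjusted p = 0.00167). AHCYL1, whose own part in this supply was not tested, rose by 0.45 (adjusted p = 5.64e-06).

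Among the other histone-modifying enzymes, 5 of 8 arginine methyltransferases fell and 2 rose. PRMT1, the main arginine methyltransferase of the cell, fell from 11682 ± 754 to 6906 ± 129 (-0.76, adjusted p = 9.5e-08) and PRMT3 by 0.73 (adjusted p = 3.2e-07), both larger falls than that of any lysine writer or eraser. Of 10 lysine acetyltransferases 5 rose and 3 fell, with HAT1 at -0.66 (adjusted p = 1.89e-06) and KAT2B at 0.49 (adjusted p = 0.000136). Of 11 histone deacetylases 4 rose and 3 fell, HDAC2 by 0.39 on the log2 scale (adjusted p = 9.99e-06). The share of each list that was called was not tested against the 58.7% of all genes.

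**Figure D5:**
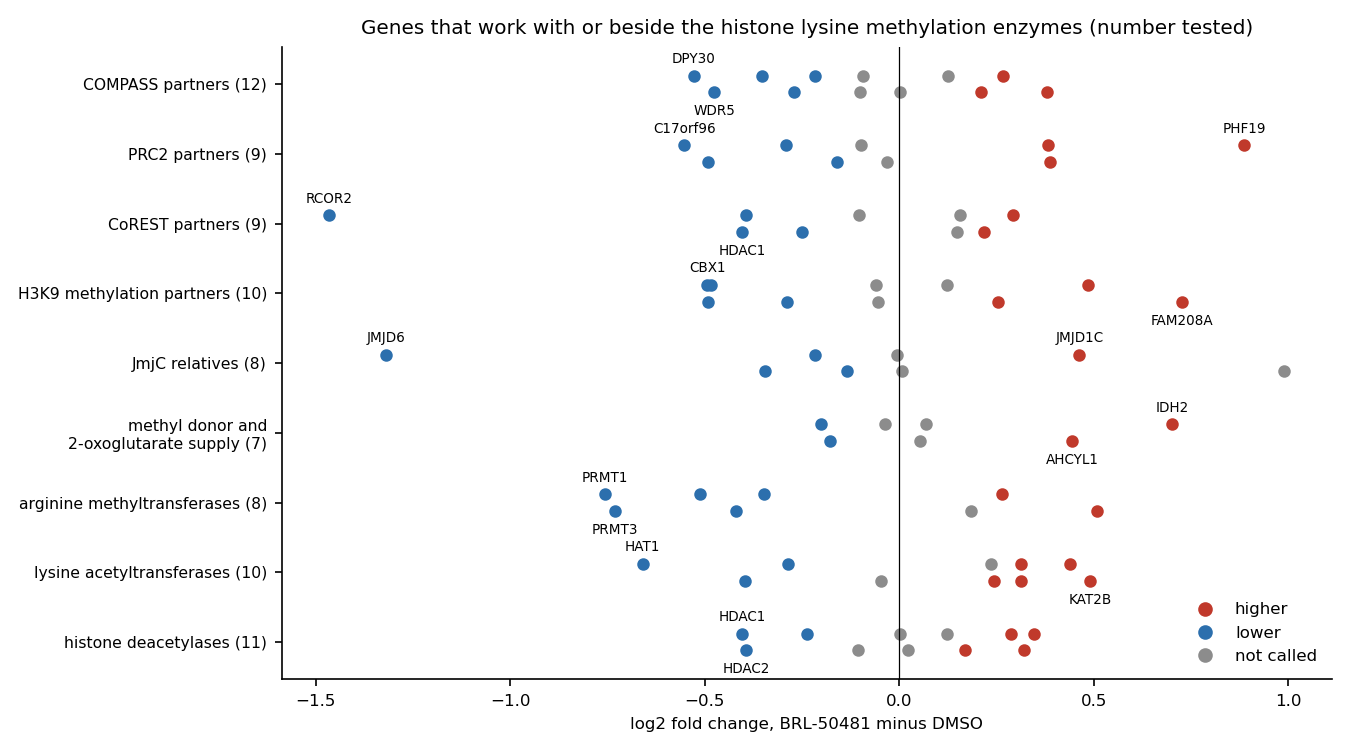
Log2 fold change of BRL-50481 against DMSO (x axis) for genes of 9 lists, 1 row a list with the number of genes tested, with red for called higher, blue for called lower and grey for not called. The 2 named genes of each list have the largest changes among called genes with a mean of at least 50 normalised counts, and every list holds genes on both sides of 0.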

How the data were processed

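RNA of 6 libraries of MDA-MB-231 cells (3 DMSO, 3 BRL-50481) was sequenced as strand-specific libraries. The authors aligned reads to hg38 with STAR 2.7.1a, counted them per gene with HTSeq and divided each library by a DESeq2 (1.28) size factor, and they deposited these normalised counts, a signal that is comparable between libraries for 1 gene. Dividing by the value of 1 read gave whole reads for 100% of the values (tolerance 1e-06), and all 6 libraries have 30750573 to 33446984 reads. Columns of the authors' own fold changes and p-values were not used.

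Groups were taken from the labels. Genes with a normalised count of at least 4 in at least 3 libraries were tested by limma 3.58.1 with its trended moderation of variances, on values of log2(normalised count + 1), with group as the only term and Benjamini-Hochberg adjustment over 15246 genes, and adjusted p under 0.05 was called. Fold changes are on that log2 scale, which understates changes of low genes. The method was tested on simulated data. The alternatives changed the pseudocount (0.5 or 4) or the filter (none, or a mean of at least 20). Others used quantile normalisation, median centring, no trend, or a loess correction for transcript length and GC content (span 0.5). The recovered reads were tested with edgeR 4.0.16 and DESeq2 1.42.0. A replicate block was added, each library was left out, and only genes with a settled histone activity of their own were kept. Lengths and coordinates are those of GENCODE 44 canonical transcripts on hg38, found for 96.5% of genes, and promoters are from RefSeq (GRCh38.p14).

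The genes and lists were chosen with earlier results of these data known. Values for each library were given for called genes with a mean of at least 50 and a log2 change of at least 0.5 in size, for EZH1, EZH2, EED and SUZ12, and for paralogues called in opposite directions. From each partner list the 2 called genes with the largest changes and a mean of at least 50 were named. All other genes given in detail were chosen after their values were seen. A further leukocyte marker of the fixed lists is not reported here.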

Additional observations from a re-analysis of the deposited data

How the results depend on the processing

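Of the 35 enzymes called, 24 had the same call in all 17 alternative fits (10 higher, 14 lower), and none was called in the opposite direction in any of them. The calls of all 51 genes were the same under pseudocounts of 0.5 and 4, without a filter, with a mean of at least 20 and with edgeR. With DESeq2 48 kept their call (not KDM6A, KDM4D and KMT2D), with limma without a trend 42, with quantile normalisation 44, with median centring 47 and after the length and GC correction 45. The 9 calls lost without a trend were those of KDM6A, KDM5B, KDM3B, KDM7A, KDM4D, WHSC1L1, SETD7, SETD1B and KMT2D. Depth limits KDM4D and KDM8, whose lowest libraries held 15.7 and 28.6 normalised counts.

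The count of lower writers was 4 among genes with a settled histone activity of their own, a set without EED and SUZ12. The count of higher erasers was 4 without a trend and 5 to 10 when 1 library was left out, with 5 without treated replicate 2 or 3. The median log2 fold change of writers was 0.10 with quantile normalisation, -0.050 after the length and GC correction, 0.16 in genes with a settled activity and -0.021 to 0.084 when 1 library was left out, and that of erasers was 0.048 after the correction. The direction changed for 6 genes, none of them called with all libraries: SUZ12 (0.00663 with quantile normalisation, -0.12 to 0.036 when 1 library was left out), EZH1 (-0.0048 after the correction), SETD2 (-0.011), KMT2A (-0.16, and -0.031 to 0.27), KMT2C (-0.13, and -0.011 to 0.35) and EHMT1 (-0.026 to 0.087). The cause was not tested.

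Libraries share replicate numbers across groups, but the labels do not say that a number marks a shared day or batch. The deviations of same-numbered libraries correlated at 0.12, 0.10 and 0.05, and 5 of the 6 libraries correlated best with their own number, a hint from the data and not from the design. With the replicate number as a block 4440 genes were higher and 4589 lower, beside 4400 and 4546 without it, and of the enzymes 50 kept their call and ASH1L was called higher.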
